A study of Mus musculus with 6 samples.

Results

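The genes described here are 37 genes that make up the working parts of the lysosome: proteases, other acid hydrolases and their activators, proteins of the limiting membrane, the proton pump, a calcium channel and the transcription factor of the lysosomal program. They were taken by name from the 34111 genes of the count matrix, and all 37 were present. Their transcripts were followed in microglia and in neural stem and progenitor cells (NSPCs) sorted from the subventricular zone (SVZ), the neurogenic niche along the lateral ventricle, of uninjured mice and of mice 1 day (PT D1) and 7 days (PT D7) after photothrombotic ischemia (PT), a cortical stroke made by shining light on the cortex of mice given the dye Rose Bengal. Every group came from adult, tamoxifen-treated Nestin-CreERT2:R26-yfp mice on a C57BL/6N background. In these mice Cre driven by the Nestin promoter marks NSPCs and the cells they give rise to with YFP. After PT the tissue was taken from the SVZ on the side of the lesion, and the side taken from uninjured mice is not given. Flow cytometry took CD11b+CD45low cells for microglia and YFP+ cells for NSPCs, and both were sequenced from the same 6 libraries, 2 for each condition. How many mice each library pooled is not given in the sources used here, and the plate cannot be told apart from the condition.

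Lysosomes break down proteins, lipids, glycans and nucleic acids that reach them by endocytosis, phagocytosis or autophagy. Their hydrolases work at acid pH, which a vacuolar ATPase maintains by pumping protons across the limiting membrane, and many lysosomal genes share a promoter element, CLEAR, that is bound by TFEB and its relatives. Microglia are the phagocytes of the brain parenchyma and depend on this compartment to digest what they take up, whereas in quiescent neural stem cells lysosomes are known to hold and clear protein aggregates.

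The 658 cells comprised 416 microglia, 222 NSPCs and 20 cells that the authors left as a mixed population. Summed over the cells of a class, a library held 294984 to 468186 unique molecular identifiers (UMIs) of microglia and 82504 to 497292 UMIs of NSPCs. The 12 markers of microglia summed to 6547 to 17563 CPM, that is UMIs of these genes relative to all UMIs of the summed cells, in microglia and 244 to 1539 in NSPCs, and the 12 markers of NSPCs to 4649.7 to 6315 in NSPCs and 136 to 647 in microglia. Cell names were not shared between libraries. Some libraries stood apart in what else they carried. Choroid plexus markers summed to 10582 and 4688 CPM in the microglia of the uninjured libraries against 196 to 617 after PT, and markers of border-associated macrophages summed to 1339.9 CPM in PT D1 library 2 against 231 to 545 in the others. The microglial markers themselves were lower at PT D1, at 9119 and 6547 CPM, than in the uninjured libraries, at 17563 and 17514, or at PT D7, at 13353 and 13009.

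Promoter sequences of 32 of the 37 genes, from 250 bases before to 50 bases after the start, were found in RefSeq (build GRCm38.p6). The E-box CACGTG, a palindrome that reads the same on both strands, was present in 10 of these 32 genes (31.25%) and in 8.09% of the 27025 genes of the table. Its extended form TCACGTGA, the core of the CLEAR element and also a palindrome, contains the E-box and was found in Ctsa, Ctsd, Atp6v0d1, Atp6v1a and Mcoln1, that is in 15.6% of the lysosomal genes and 1.12% of all genes. The full element, the core with a G before and a C after it, was found in 0 of the 32 genes and in 0.37% of all genes. The element GAGGAAGT, which the myeloid factor PU.1 can bind, was searched on both strands and was found in Ctsc, Ctss and Gusb, 9.375% of the lysosomal genes against 3.69% of all genes. The following windows of 30 bases lie upstream of the start and come from 4 genes chosen with the results below known. Atp6v1a and Ctsl were called in microglia at PT D1, Ctsd was called in no contrast, and Mcoln1 holds both forms. Cd63 and Ctsb, also called at PT D1, were not among the 10 genes with an E-box. Ctsb was among the genes without a promoter sequence. Capitals mark the E-box or, where the flanking bases match, the CLEAR core. A match describes the letters of the window and was not tested as a binding site.
Atp6v1a, chr16:44139373-44139402, minus strand: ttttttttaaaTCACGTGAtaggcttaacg
Ctsd, chr7:142387908-142387937, minus strand: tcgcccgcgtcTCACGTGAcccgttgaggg
Ctsl, chr13:64370739-64370768, minus strand: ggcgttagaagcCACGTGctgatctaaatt
Mcoln1, chr8:3500436-3500465, plus strand: ggtcgcgcttgtCACGTGttcagttcaggc
Mcoln1, chr8:3500462-3500491, plus strand: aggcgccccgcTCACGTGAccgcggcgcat
The center of the element was 128 bases before the start in Atp6v1a, 95 in Ctsd, 233 in Ctsl, and 68 and 42 in Mcoln1. Lamp1 held 3 E-boxes, centered 58, 42 and 25 bases before its start, none of them in the extended form.

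Lysosomal transcripts were more abundant in microglia than in NSPCs. Across libraries the 37 genes together gave 1.52% to 2.13% of the UMIs of microglia and 0.236% to 0.379% of those of NSPCs. Because the classes were made by clustering these cells on their expression, levels between classes are given as a description without a test. Of the 31 lysosomal genes with enough counts for the comparison, 23 had all 6 microglial libraries above all 6 NSPC libraries, against 12.3% of the 4647 genes compared, 1 lay below, against 34.2% of all genes, and 7 overlapped. Enough counts in 1 class sufficed for any gene to enter, so some entered through their microglial level. Among the 23, Asah1, Cd68, Ctsc, Ctsh, Hexa, Laptm5 and Man2b1 did not pass the count filter of the NSPC test. The median difference in level was 2.32 on the log2 scale, where the median of all genes was -0.69. With TMM normalization, which scales each sum so that most genes do not differ, 25 genes lay above (19.9% of all genes), 0 below and 6 overlapped, and the medians were 3.03 for the lysosomal genes and -0.02 for all genes.

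**Figure D1:**
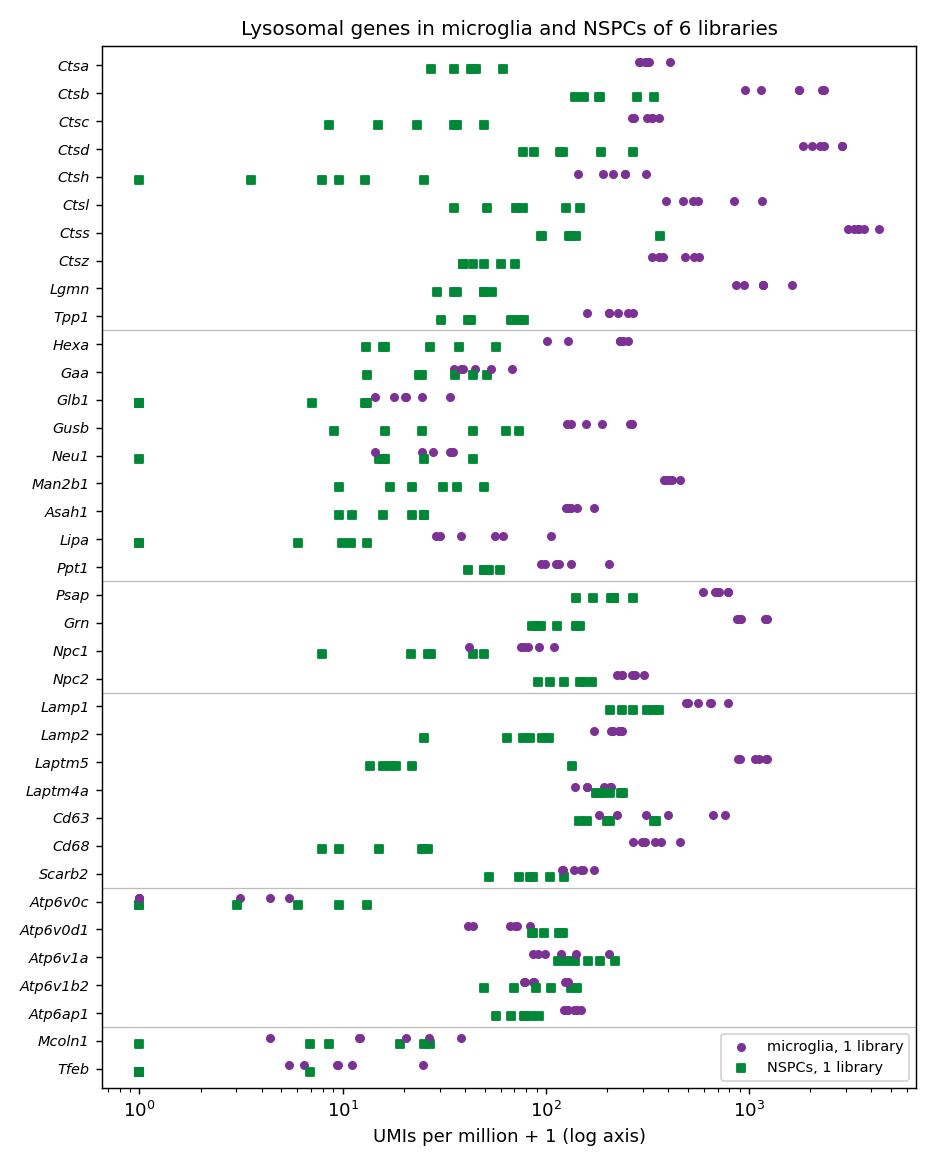
CPM plus 1, on a log axis, of the 37 lysosomal genes in the 6 libraries of microglia (circles) and the 6 of NSPCs (squares). Lines lie between roles, and 31 of the genes had enough counts for the comparison. The cathepsins and Laptm5 separate widely, whereas Cd63, Laptm4a, Gaa and the pump subunits Atp6v1a and Atp6v1b2 overlap.

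The gap between the classes was wide in several proteases. Ctss, a cysteine protease of antigen-presenting cells that stays active near neutral pH, measured 3069 to 4381 CPM in microglia and 93.5 to 364 in NSPCs. Lgmn, the asparaginyl endopeptidase that processes other cathepsins, measured 861 to 1621 in microglia and 28.2 to 53.3 in NSPCs. Ctsd, the main aspartyl protease of the lysosome, measured 1834 to 2872 against 76.6 to 267. In each of these 3 proteases the lowest microglial library was several-fold above the highest NSPC library. Laptm5, a lysosomal membrane protein of hematopoietic cells, was 29.7-fold higher in microglia on the mean over 6 libraries, and Cd68, the heavily glycosylated macrophage membrane protein, 19.8-fold. Neither passed the count filter of the NSPC test, so both entered through their microglial level. In NSPCs Laptm5 measured 133 CPM in PT D7 library 1 and 12.6 to 20.9 in the other libraries. Among other genes the gap varied. Man2b1, a lysosomal alpha-mannosidase, was 15.2-fold higher in microglia, Asah1, acid ceramidase, 8.0-fold and Hexa, a subunit of beta-hexosaminidase, 7.4-fold. Man2b1, Asah1 and Hexa did not pass that filter either. Lamp1, a main glycoprotein of the limiting membrane, was 2.1-fold higher in microglia, Npc2, which hands cholesterol to Npc1 in the lumen, 2.0-fold, and the accessory pump subunit Atp6ap1 1.8-fold. The pump subunit Atp6v0d1 was the gene that lay below, with 40.5 to 82.6 CPM in microglia and 84.8 to 120.5 in NSPCs, although these ranges overlapped with TMM normalization.

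Microglial markers were also counted in NSPCs. The 12 microglial markers reached, in the NSPCs, 2.65% to 4.57% of their level in the microglia of the same library in 5 libraries and 11.5% in PT D7 library 1, which held 15 NSPCs. Scaled by these shares, the microglial level of a gene gave a ratio of measured to scaled NSPC level, on the means over 6 libraries, of 0.99 for Ctss, 0.95 for Ctsh, 0.86 for Lgmn, 0.75 for Laptm5, 1.11 for Cd68 and 1.24 for Ctsd. These means were weighted toward PT D7 library 1, where the scaled level was highest. By library, the measured level was above the scaled level in 1 of 6 for Laptm5, 3 for Ctss, 4 each for Ctsh, Lgmn and Cd68, and 5 for Ctsd, with 120.5 against 49.4 CPM in uninjured library 1 and 187 against 93.2 in PT D1 library 2. The part of microglial RNA in these levels was not tested. For other genes the NSPC level was far above the scaled level, with ratios of 34.4 for Atp6v0d1, 28.6 for Atp6v1a, 25.9 for Laptm4a, 23.0 for Atp6v1b2, 12.7 for Cd63, 10.9 for Npc2, 10.6 for Lamp1 and 6.12 for Psap, the precursor of the saposins that present lipids to hydrolases, and it was above in 6 of 6 libraries for each of them.

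At PT D1 the lysosomal genes called in microglia were higher, while Hexa, which was lower, fell just outside the threshold (edgeR adjusted p = 0.051). In the edgeR quasi-likelihood test on UMIs summed per library, with 3 conditions fitted together, 4 of the 33 lysosomal genes tested passed an adjusted p of 0.05 over the 4846 genes tested at PT D1 against uninjured, all 4 higher, where 5.7% of all genes were called and 2.72% were called higher. They were Cd63, Ctsl, Ctsb and Atp6v1a. The median log2 fold change of the 33 genes was 0.31 against 0.04 over all genes, 25 were positive and 8 negative, and in 18 both PT D1 libraries lay above both uninjured libraries, against 27.2% of all genes. This median fell to 0.085 without PT D1 library 1, with 22 of 35 genes positive, where the median over all genes was -0.018. It fell to 0.17 without TMM normalization, where the median over all genes fell too, to -0.086. Without microglia holding 3 or more NSPC markers it was 0.19, against 0.033 over all genes. Without TMM normalization 2 were called higher and 1 lower, where 264 of all 4846 genes were called. DESeq2, whose own filter left 30 of the lysosomal genes with an adjusted p, called 3, all higher, and 85 of all 1703 genes. Levels between libraries are given as CPM after TMM normalization. With 2 libraries for each condition an exact permutation test cannot go below p = 0.33, and the p values measure the spread between libraries, which may be technical.

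Cd63, a tetraspanin of late endosomes, lysosomes and exosomes (chromosome 10, 128731528 to 128748709 of GRCm39, plus strand), measured 229 and 176 CPM in the uninjured libraries, 829 and 721 at PT D1, with 380.1 and 438 at PT D7. Both PT D1 libraries lay above both PT D7 libraries, which in turn lay above both uninjured libraries. The log2 fold change at PT D1 was 1.94 ± 0.26 (SE) with an adjusted p of 0.0016. Leaving out uninjured library 2 raised this adjusted p to 0.0721, and it stayed under 0.05 in the other 17 of 18 alternatives.

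The 2 proteases rose by similar amounts. Ctsl, a cysteine endopeptidase (chromosome 13, 64507151 to 64518704, minus strand), measured 399 and 459 in the uninjured libraries, 1264 and 918 at PT D1, with 689 and 582 at PT D7. Its log2 fold change at PT D1 was 1.34 ± 0.26 (SE) with an adjusted p of 0.015, and the PT D1 libraries stood above all 4 others. Ctsb is a cysteine protease with both endopeptidase and peptidyl-dipeptidase activity (chromosome 14, 63358384 to 63383372, plus strand). It measured 986 and 1106 in the uninjured libraries, 2558 and 1904 at PT D1, with 2163 and 2496 at PT D7. Its log2 fold change at PT D1 was 1.09 ± 0.26 (SE) with an adjusted p of 0.033, and unlike Ctsl its PT D7 libraries overlapped with those of PT D1. Without uninjured library 1 or uninjured library 2 neither protease passed, with adjusted p of 0.229 and 0.152 for Ctsl and 0.361 and 0.244 for Ctsb, and Ctsb was also lost without PT D1 library 1 (0.0828) or PT D7 library 1 (0.0565), without TMM normalization (0.0658) and with only the 2 conditions fitted (0.0571).

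Atp6v1a, the catalytic subunit of the pump (chromosome 16, 43887852 to 43960076, minus strand), measured 93.5 and 83.0 in the uninjured libraries, 152 and 221 at PT D1, with 121 and 129.8 at PT D7. Its log2 fold change at PT D1 was 1.09 ± 0.29 (SE) with an adjusted p of 0.04997, so that it only just passed. The call held in 5 of 18 alternatives. Without the cells of cluster 3, of which 35 of 41 came from PT D1 library 2, the log2 fold change was 0.76 and the adjusted p was 0.0886, and the level of Atp6v1a was 271 CPM in cluster 3 and 62.1 to 171 in the other microglial clusters. Each of the 4 pump subunits tested had both PT D1 libraries above both uninjured libraries, where 27.2% of all genes did, but the other 3 were not called. Of the 12 other pump subunits tested, 5 lay above in this way and 2 below, where 1174 of all 4846 genes lay below. Atp6v1b2, the other subunit of the catalytic ring, went from 79.3 and 83.0 to 94.2 and 133, and Atp6ap1 from 142 and 120.4 to 161 and 153.

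**Figure D2:**
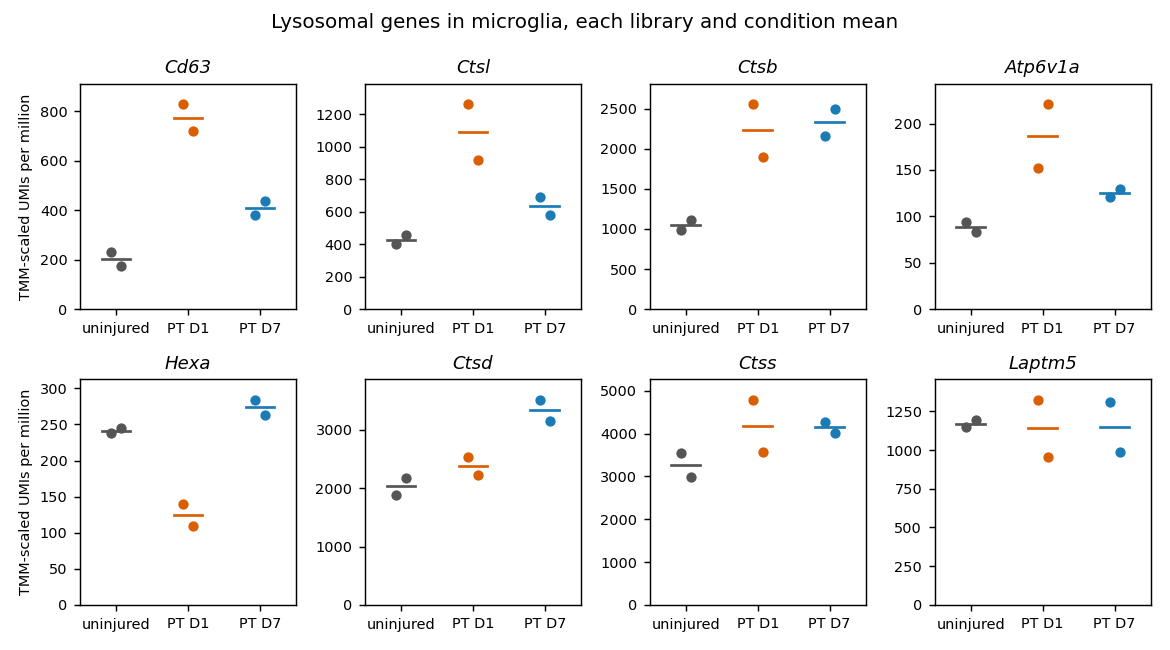
CPM after TMM normalization of 8 lysosomal genes in microglia, with a point for each library and a line at the mean of each condition. Cd63 and Ctsl were highest at PT D1, Ctsb was raised in all 4 PT libraries, Hexa was lowest at PT D1, and Ctss and Laptm5 overlapped or lay close between conditions.

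The other 8 proteases did not pass at PT D1. Ctss measured 3543 and 2983 in the uninjured libraries, 4788 and 3562 at PT D1, with 4277 and 4019.7 at PT D7. Ctsd measured 1892 and 2173, then 2543 and 2219, then 3517 and 3156, with both PT D7 libraries above the 4 others. Lgmn measured 1209 and 1135, then 1771 and 1268, then 1061 and 1035. Ctsz, a carboxypeptidase, measured 371 and 322, then 526 and 408, then 659.9 and 619. Of the 10 proteases, 8 had a positive and 2 a negative log2 fold change at PT D1, and only Ctsb and Ctsl were called.

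Among the other hydrolases the directions were mixed. Hexa, which encodes the alpha subunit of beta-hexosaminidase (chromosome 9, 59446818 to 59474021, plus strand), measured 238 and 245 in the uninjured libraries, 139.7 and 109 at PT D1, with 284 and 263 at PT D7. The PT D1 libraries lay below the 4 others, with a log2 fold change against uninjured of -0.96 ± 0.26 (SE) and an adjusted p of 0.051, just outside the threshold, and the gene passed in 7 of 18 alternatives. Gusb, beta-glucuronidase, went the other way, from 130.3 and 129 to 282 and 204, with an adjusted p of 0.100. Lipa, the lysosomal acid lipase, measured 62.3 and 54.0, then 30.4 and 31.6, then 129 and 40.8, so that the 2 PT D7 libraries differed by more than the conditions.

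No activator, lipid carrier or membrane protein other than Cd63 was called at PT D1. Grn, progranulin, measured 920.4 and 843 in the uninjured libraries, 1306 and 988 at PT D1, with 1504 and 1328 at PT D7. Psap measured 699 and 683, then 863 and 643, then 965 and 782. Npc2 measured 229 and 228, then 289 and 257, then 338 and 334. Of the 4 activators and lipid carriers all 4 had positive log2 fold changes at PT D1 and 0 were called. Lamp1 measured 513 and 475, then 859.8 and 709, then 693 and 705, with both pairs of PT libraries above the uninjured pair, a log2 fold change at PT D1 of 0.67 ± 0.24 (SE) and an adjusted p of 0.135. Laptm5 measured 1147 and 1191, then 1325 and 957, then 1311 and 986, and Cd68 317 and 289, then 401 and 291, then 422 and 501. Of the 7 membrane proteins, 3 had positive and 4 negative log2 fold changes at PT D1.

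Other genes of the pathway, 95 in all, of which 53 were tested in microglia, gave 4 calls at PT D1, all higher. Of all genes tested, 5.7% were called and 2.72% were called higher. Cstb, a cytosolic inhibitor of cathepsins, measured 59.5 and 51.9 in the uninjured libraries and 139.7 and 240.4 at PT D1, a log2 fold change of 1.78 with an adjusted p of 0.012. Ifi30, a thiol reductase that unfolds antigens in the lysosome, measured 73.6 and 85.1, then 277 and 206. Atp6ap2, an accessory protein of the pump, measured 156 and 154, then 304 and 308. Their log2 fold changes were 1.59 and 0.98, with adjusted p of 0.012 and 0.037. Among genes named whatever their values, Cst3, the secreted cathepsin inhibitor cystatin C, measured 14713 and 12381, then 11219 and 8690.4, and Tcirg1, a pump subunit, 59.5 and 89.3, then 146 and 87.4. Ctsk, the osteoclast protease, had 0 to 8.4 CPM in the 6 libraries and was not tested.

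The filter on low counts left 4 genes out of the test in microglia. Atp6v0c, the proteolipid of the proton channel, had 4 UMIs over the microglia of all libraries. Levels of Mcoln1, the lysosomal calcium channel, were 3.7 to 45.9 CPM, and those of Tfeb, the transcription factor of the lysosomal program, were 4.9 to 29.2. Glb1, beta-galactosidase, had 14.6 to 34.0 CPM. Without the filter 0 of these 4 were called by edgeR in any contrast, with 0 at an unadjusted p under 0.05, so changes in them were not detectable at this depth.

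Other material moved with the PT D1 contrast. Choroid plexus markers were high in the uninjured microglia and microglial markers were low at PT D1, as given above. Without cells holding 3 or more choroid plexus markers 4 lysosomal genes were called, where 259 of all 4256 genes were. Their log2 fold changes were 2.09 for Cd63, 1.28 for Ctsl, 1.02 for Ctsb and 1.29 for Atp6v1a. Without cells holding 3 or more markers of border-associated macrophages 3 lysosomal genes were called, Cd63, Ctsl and Ctsb, where 257 of all 4645 genes were. Markers of monocytes or neutrophils summed to 78.2 CPM in the microglia of PT D1 library 2 and to 5.56 to 27.1 in the other libraries. Ly6c2, Ly6g, Retnlg and Camp were at 0 in every library, while Ccr2, S100a9 and Plac8 had UMIs in PT D1 library 2. When libraries of equal number were blocked in edgeR, 7 of the 33 lysosomal genes were called at PT D1, 6 higher and 1 lower, where 13.2% of all genes were called, against 5.7% without the block. Gusb (edgeR adjusted p = 0.029), Lamp1 (0.047) and, as the lower gene, Hexa (0.012) joined the others in this blocked fit.

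At PT D7 no lysosomal gene was called in microglia. Of the 33 genes tested in microglia at PT D7 against uninjured, 0 passed the edgeR test, where 0.165% of all genes were called. There were 8 genes with an unadjusted p under 0.05, all of them higher, where 4.09% of all genes were higher at that level. These were Ctsb, Cd63, Ctsz, Gusb, Ctsd, Grn, Cd68 and Npc2. The median log2 fold change was 0.36 against -0.01 over all genes, 27 genes were positive and 6 negative, and in 23 of the 33 both PT D7 libraries lay above both uninjured libraries, against 19.1% of all genes. DESeq2 called 1 gene, Ctsb.

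**Figure D3:**
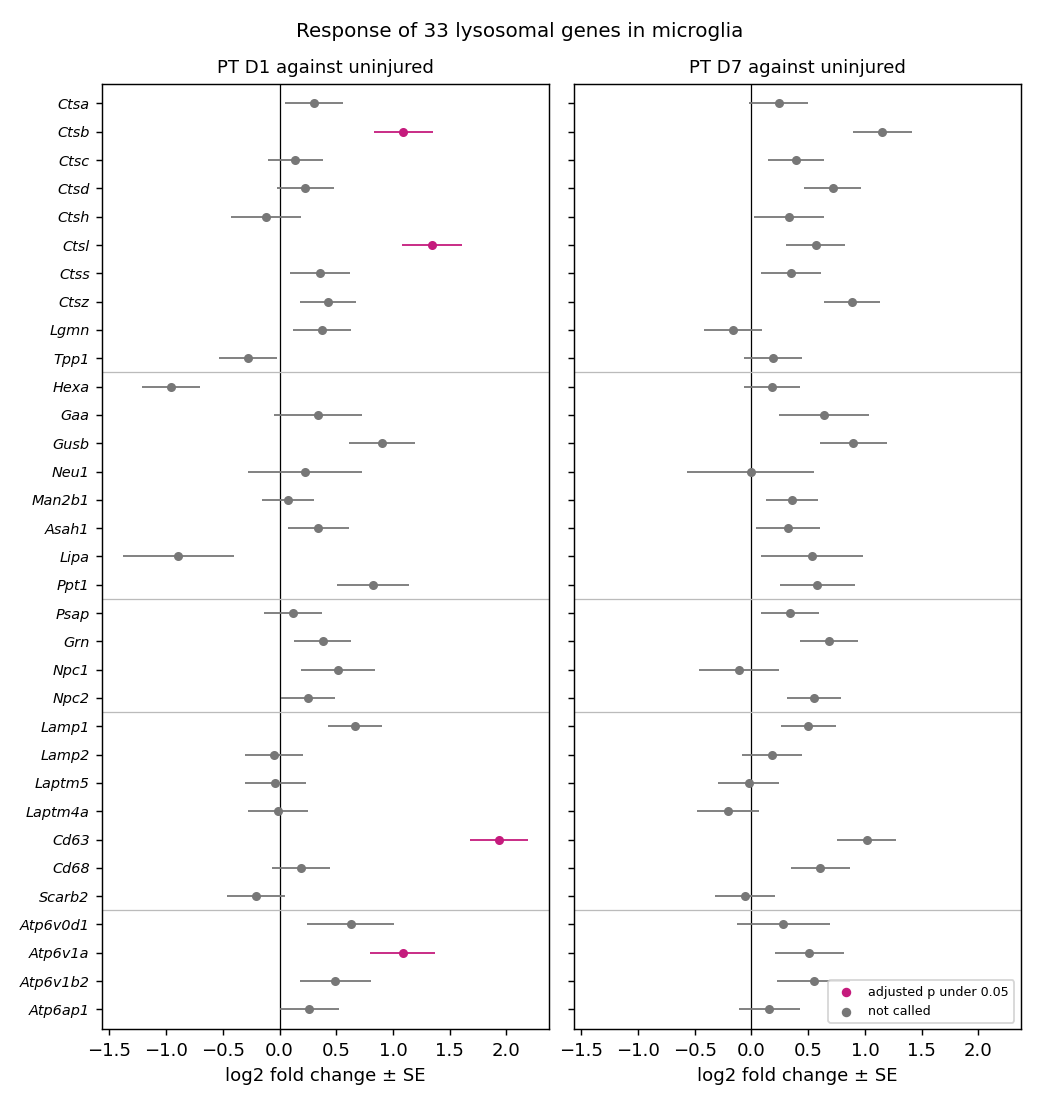
Log2 fold changes with their standard errors of the 33 lysosomal genes tested in microglia, at PT D1 (left) and PT D7 (right) against uninjured, by role. The 4 called genes at PT D1 are colored, and at PT D7 27 of the 33 values lie above 0 with none called.

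The 2 genes of lowest p at PT D7 were also called at PT D1, a contrast that shares its uninjured libraries. Ctsb had a log2 fold change of 1.15 ± 0.26 (SE) with an adjusted p of 0.243 at PT D7. Cd63 had one of 1.01 ± 0.26 (SE) with an adjusted p of 0.293. In the fit that blocked on library number, adjusted p was 0.0057 for Ctsb and 0.042 for Cd63, and 2 lysosomal genes were called, where 0.887% of all genes were. Ctsz followed with 0.89 ± 0.25 (SE) and an adjusted p of 0.402, Gusb with 0.90 ± 0.30 (SE), Ctsd with 0.71 ± 0.25 (SE), Grn with 0.68 ± 0.25 (SE), Cd68 with 0.61 ± 0.26 (SE) and Npc2 with 0.55 ± 0.24 (SE). Both PT D7 libraries lay above both uninjured libraries in all 8. Since the 8 were picked by p on these same libraries, this adds no support.

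These differences at PT D7 moved with the cells of cluster 4, of which 16 and 13 came from the PT D7 libraries. Without cluster 4 cells the log2 fold change of Cd63 at PT D7 was -0.11 and that of Ctsb was 0.35. The median over the 34 genes then tested was 0.04, against -0.004 over all genes, and 18 of the 34 were positive. Within cluster 0 alone Cd63 was at -0.19 and Ctsb at 0.22, with 0 of 30 genes called. Clusters were drawn from variable genes of the same cells, so they are not independent of the levels measured in them. At PT D1 the removal of cluster 4 cells left 3 lysosomal genes called, where 213 of all 4853 genes were called. Their log2 fold changes were 2.05 for Cd63, 1.42 for Ctsl and 1.26 for Ctsb.

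Among the other genes of the pathway 0 of 53 were called at PT D7 by edgeR, with 7 at an unadjusted p under 0.05, 5 higher and 2 lower. Of all 4846 genes tested, 198 were higher and 157 lower at that unadjusted level. Cst7, a cystatin that inhibits cathepsins of microglia, measured 2.8 and 0 CPM in the uninjured libraries, 15.2 and 17.0 at PT D1, with 45.9 and 40.8 at PT D7, with an adjusted p of 0.157 at PT D7. The 3 conditions did not overlap in Cst7.

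Between the PT time points Hexa was the single lysosomal gene called in microglia. In PT D7 against PT D1 its log2 fold change was 1.14 ± 0.26 (SE) with an adjusted p of 0.036, so 1 of 33 genes was called, higher, where 3.8% of all genes were called. The call held in 9 of 18 alternatives and was lost without uninjured library 1 or 2, PT D1 library 2, or either PT D7 library, with adjusted p up to 0.179. Cd63 was lower at PT D7 than at PT D1 by the fitted value, -0.92 ± 0.25 (SE) with an adjusted p of 0.069, and Ctsl was at -0.78 ± 0.26 (SE) with an adjusted p of 0.132. Blocking on library number in edgeR gave 4 calls of 33, where 9.53% of all genes were called, with Hexa (edgeR adjusted p = 0.0056) and Lipa (0.045) higher and Cd63 (0.010) and Ctsl (0.032) lower. Without PT D1 library 2 the 2 genes called were Cd63 and Ctsl, both lower. Of the other pathway genes Acp2, an acid phosphatase, was called higher, at 39.5 and 58.3 at PT D1, with 179.6 and 126 at PT D7, with 139 and 97.6 in the uninjured libraries, a log2 fold change of 1.62 and an adjusted p of 0.029.

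Across the 5 microglial clusters the lysosomal genes were most abundant in cluster 4 and least in cluster 2. Their share of all UMIs was 2.80% for cluster 4, 2.05% for cluster 1, 1.62% for cluster 0, 1.39% for cluster 3 and only 0.968% for cluster 2. Among all 9 clusters and subclusters, 24 of the 37 genes had their highest level in cluster 4, and among the 5 microglial clusters 28 had their lowest in cluster 2. The same counts were not made over all genes. Cluster 1 came from PT D1 alone, with 64 and 40 cells in its libraries, and cluster 3 mostly from PT D1 library 2, so for these clusters the cell state, the condition and library cannot be told apart. Cd63 stood at 710.1 CPM in cluster 1, 665 in cluster 3 and 721 in cluster 4, and at 179.9 in cluster 0 and 157 in cluster 2. Ctsl was highest in cluster 1, at 1109, followed by cluster 4 at 922. Laptm5 and Lgmn did not follow this order, with 1265 and 1249 in cluster 0 and 1026 and 967 in cluster 4.

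**Figure D4:**
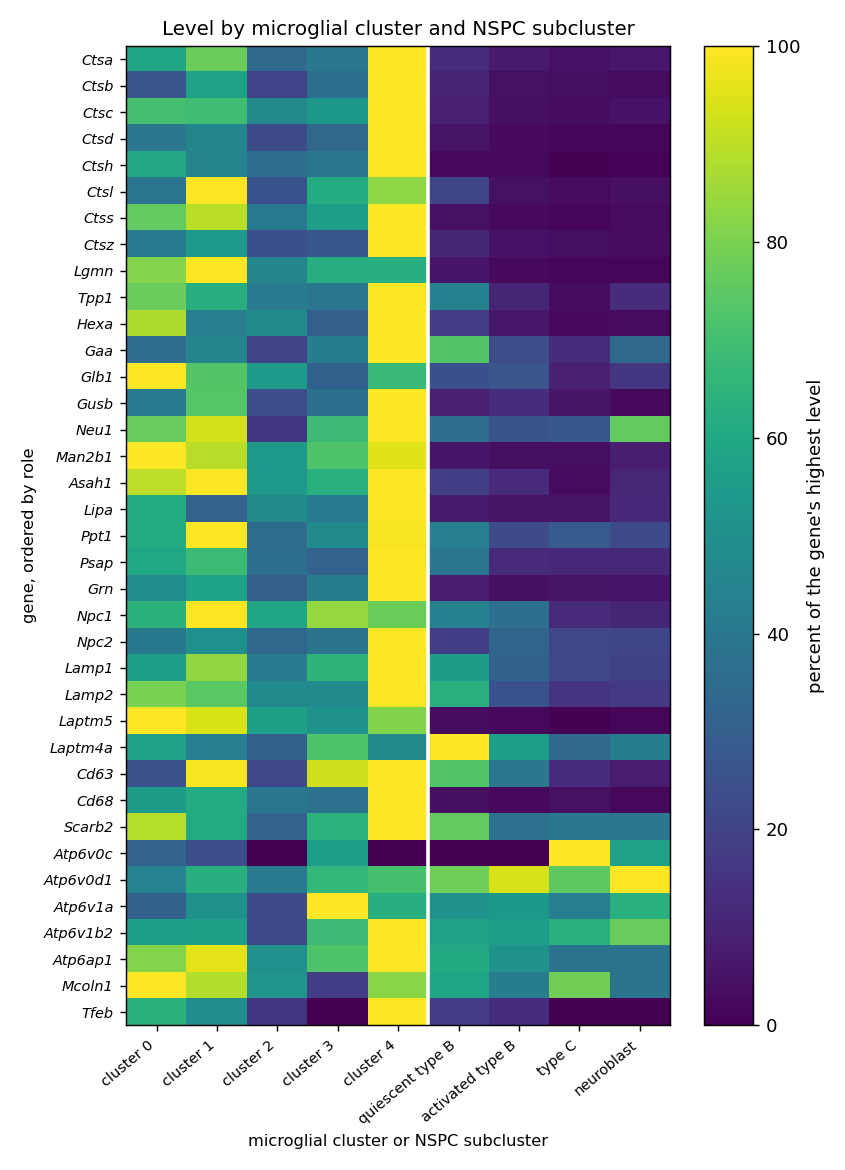
Level of the 37 lysosomal genes in the 5 microglial clusters and 4 NSPC subclusters, each as a percent of the highest level of that gene, with the genes in order of role. Cluster 4 holds the highest level of 24 genes, and Laptm4a is highest in quiescent type B cells.

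At PT D7 both libraries held at least 10 cells of clusters 0 and 4, so the clusters could be set side by side within a library. Of the 33 genes, 19 had both cluster 4 values above both cluster 0 values, against 14.8% of all genes tested, and 3 had both below, against 26.0%. Cd63 went from 144 and 179 CPM in cluster 0 to 638 and 897 in cluster 4, Ctsb from 1329 and 1083 to 3238 and 4946, and Ctsd from 2354 and 1905 to 5126 and 5459. Npc2 stood at 192 and 228 against 499.7 and 534, and Atp6v1a at 80.1 and 40.7 against 157 and 214. These genes are all among the 19, so their order adds no support, and the clusters were drawn from variable genes of the same cells. Ctss differed little, with 4772 and 4437 in cluster 0 and 4617 and 4423 in cluster 4. The 3 genes below were Lgmn, at 1377 and 1246 against 833 and 833, Man2b1 and Asah1. These values come from 18 and 32 cells of cluster 0 and 16 and 13 cells of cluster 4, with median depths of 3201.5 and 3878.5 UMIs against 6250.5 and 6856.

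**Figure D5:**
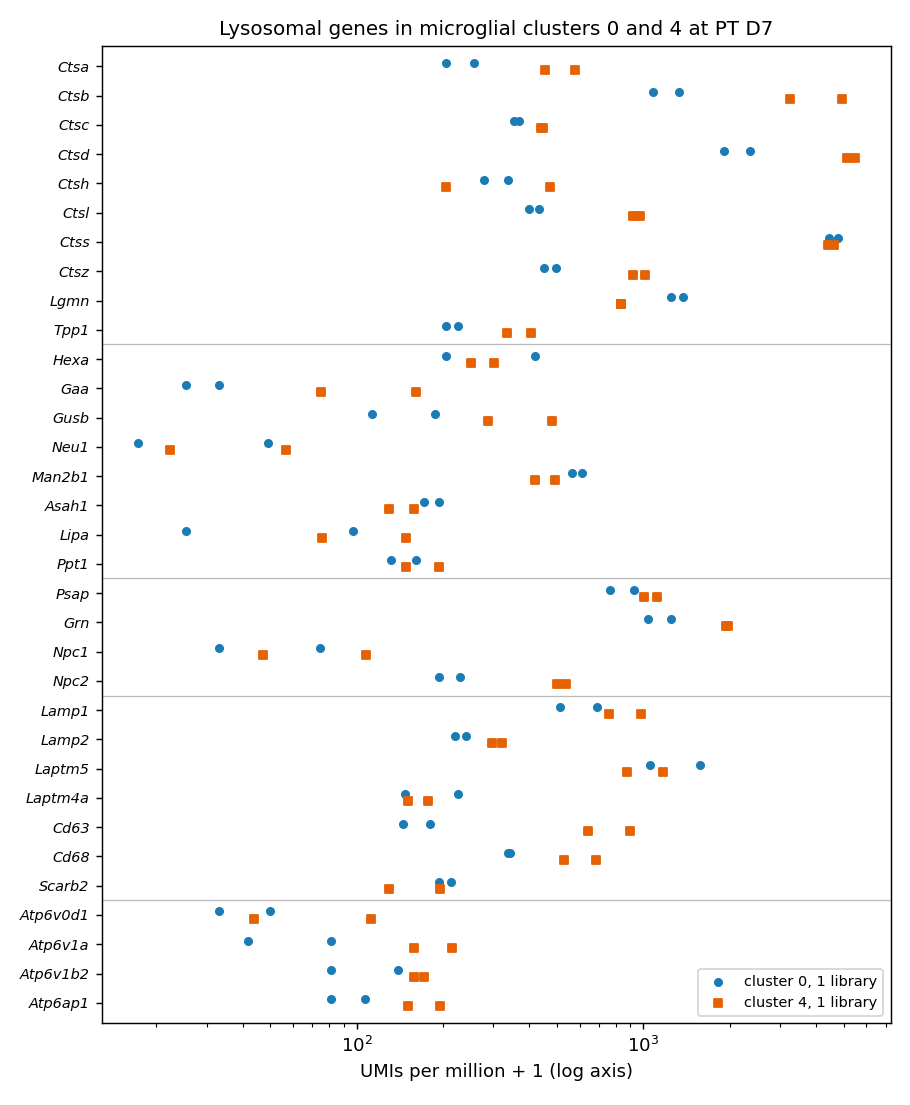
CPM plus 1, on a log axis, of the 33 lysosomal genes tested in microglia in the cells of clusters 0 (circles) and 4 (squares) of each PT D7 library. In 19 genes both squares lie to the right of both circles, and in Lgmn, Man2b1 and Asah1 to the left.

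In NSPCs no lysosomal gene was called between conditions. At PT D1 against uninjured 0 of 24 genes tested passed the edgeR test, where 2.12% of all 4907 genes were called. At an unadjusted p under 0.05 there were 2 of the 24 and 724 of all genes. DESeq2 also called 0, but its own filter left only 7 of the lysosomal genes with an adjusted p. The median log2 fold change was 0.32 against 0.03 over all genes, with 18 positive and 6 negative values. It was 0.086, with 9 of 16 genes positive, without NSPCs holding 3 or more microglial markers, and 0.17 without PT D1 library 2. The median over all genes was 0.007 and -0.029 in these 2 fits. Cd63 had the lowest p, with 220.3 and 191 CPM in the uninjured libraries, 373 and 387 at PT D1, with 225 and 163 at PT D7, and its PT D1 libraries stood above the 4 others. Its log2 fold change at PT D1 was 0.92 ± 0.27 (SE) with an adjusted p of 0.082, and it was called in 3 of 13 alternatives, with edgeR adjusted p down to 0.041. Without NSPCs holding 3 or more microglial markers, which left 11 to 42 cells in each library, it was 0.26 with an adjusted p of 0.779. Tpp1, a tripeptidyl peptidase, measured 86.2 and 79.8, then 44.7 and 33.6, then 79.4 and 45.7, with a log2 fold change at PT D1 of -1.11 ± 0.47 (SE) and an adjusted p of 0.251.

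At PT D7 against uninjured 0 of 24 genes were called in NSPCs by edgeR, where 0.0815% of all genes were, and 0 by DESeq2. The 2 genes at an unadjusted p under 0.05 were Lamp2, the membrane protein of chaperone-mediated autophagy, and Gaa, acid alpha-glucosidase. Of all 4907 genes 230 had such a p. Lamp2 measured 105 and 123 in the uninjured libraries, 82.0 and 94.1 at PT D1, with 26.5 and 71.3 at PT D7, and Gaa 47.9 and 60.5, then 37.3 and 26.9, then 13.2 and 25.7. Both fell below the uninjured pair at PT D7, with log2 values of -0.94 ± 0.39 (SE) and -1.28 ± 0.62 (SE) and adjusted p of 0.995 in both. PT D7 library 1 held 82504 UMIs from 15 NSPCs, so its values for Lamp2 and Gaa rest on very few UMIs. PT D7 against PT D1 also gave 0 calls by edgeR, where 0.632% of all genes were called, and 0 by DESeq2. Of all 4907 genes 532, and of the lysosomal genes 1, had an unadjusted p under 0.05. Cd63 alone had an unadjusted p under 0.05, at -1.06 ± 0.28 (SE) with an adjusted p of 0.090 and calls in 3 of 13 alternatives (edgeR adjusted p down to 0.029), and Lamp2 was next at -0.55 ± 0.41 (SE) with an adjusted p of 0.665.

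Of the 24 genes tested in NSPCs, 9 had both PT D1 libraries above both uninjured libraries and 5 had both below, against 23% and 22% of all genes. Ctsb measured 153 and 184 in the uninjured libraries, 298 and 205 at PT D1, with 370.5 and 208 at PT D7. Lamp1 measured 297 and 247, then 336 and 410.2, then 371 and 265, Psap 239 and 249, then 149 and 245, then 291 and 191, and Npc2 115 and 109, then 179 and 171, then 159 and 137. The conditions did not overlap in Npc2, and in Ctsb all 4 PT libraries lay above the uninjured pair, with edgeR adjusted p at PT D1 of 0.341 and 0.504. The pump subunit Atp6ap1 measured 86.2 and 79.8, then 59.7 and 104, then 92.6 and 88.5. Ctss and Ctsd were highest in PT D7 library 1, at 397 and 291, against 105 to 158 and 82.0 to 212 in the other 5 libraries, and that library also had the highest level of microglial markers, as given above. Their part in these values was not tested. The 13 genes not tested in NSPCs included Laptm5, Cd68, Hexa, Lipa, Atp6v0c, Mcoln1 and Tfeb.

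Within the NSPCs the lysosomal genes were highest in quiescent type B cells, the stem cells of the niche. The 37 genes gave 0.481% of the UMIs of these cells. The shares were 0.265% for activated type B cells, 0.188% for type C cells, which are transit-amplifying progenitors, and 0.211% for neuroblasts. Of the 37 genes, 25 were highest in quiescent type B cells, a count that was not made over all genes. In the 3 libraries with at least 10 cells of both kinds, library 2 of each condition, 10 of the 24 genes tested had all 3 values of quiescent type B cells above all 3 of neuroblasts, against 13.5% of all genes, and 0 had all below, against 18.5%. Cd63 measured 461, 580.3 and 495 CPM in quiescent type B cells and 51.4, 111 and 44.8 in neuroblasts. Psap measured 518, 454 and 440.0 against 126, 143 and 117, and Ctsl 192, 328 and 128 against 42.0, 15.9 and 53.8. Lamp1 measured 413, 542 and 440.0 against 163, 222 and 179, and Lamp2 230.3, 202 and 202 against 56.0, 47.7 and 35.9. The other 5 were Ctsb, Ctsz, Tpp1, Gaa and Laptm4a. The remaining 14 genes tested overlapped, among them Ctsd, Ctss, Grn, Npc2 and the 4 pump subunits. Atp6v1a measured 144, 139 and 110.0 in quiescent type B cells and 159, 286 and 135 in neuroblasts, and Atp6v0d1 76.8, 113 and 128 against 117, 63.6 and 108. Atp6ap1 measured 86.4, 101 and 73.3 against 70.0, 79.4 and 44.8. Microglial markers summed to 509, 303 and 403 CPM in quiescent type B cells and 532, 365 and 439 in neuroblasts of these libraries, and over all libraries to 740.4 and 465.

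Whether microglia and NSPCs responded differently was tested as an interaction of class and condition with a term for the library. None of the 33 lysosomal genes tested was called by edgeR for the PT D1 response, where 0.24% of all 7514 genes were, or for the PT D7 response, where 0.0399% were. For each response 3 had an unadjusted p under 0.05, where 514 (PT D1) and 292 (PT D7) of the 7514 genes did. DESeq2 called 0 in both. For Cd63, whose level rose at PT D1 in microglia, the log2 fold change at PT D1 was 0.97 ± 0.45 (SE) larger in microglia than in NSPCs, with an adjusted p of 0.669, and at PT D7 it was 1.15 ± 0.48 (SE) larger with an adjusted p of 1. A difference between the classes in the response of these genes was therefore not shown.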

How the data were processed

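The authors sorted cells into plates, made mCEL-Seq2 libraries that tag molecules at their 3′ end with UMIs, and demultiplexed reads with bcl2fastq 2.17.1.14. Per the labels the genome build was GRCm39. For aligner, counter and annotation: not given in the sources used here. Deposited counts were whole UMIs per gene and cell, not normalized, made by the authors for cells that had passed their limits on UMIs, putative doublets and mitochondrial content, and no further doublets were called. The deposited table of the authors gives the name, class, subcluster, UMI number and percentage of mitochondrial UMIs of each cell. The library of a cell was read from the start of its name. The percentage was used for 1 alternative, and 13 columns of the authors' table were not used. Of 34203 rows 92 were ERCC spike-ins with 0 UMIs.

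UMIs were summed over microglia or NSPCs of each library and tested with edgeR 4.0.16 (TMM, filterByExpr, quasi-likelihood F-test, all 6 libraries fitted together), with Benjamini-Hochberg adjustment over all genes of a class and a threshold of 0.05. The script was tested on simulated data. Levels between classes are CPM without TMM unless stated, and so are those of clusters, given for a library where it held at least 10 cells. Gene positions come from the GENCODE annotation of GRCm39, promoters from RefSeq, with GRCm38.p6 coordinates. The 37 genes, the other lists and the tests were chosen with earlier results of these data known. Values of every library are given for called genes, for the 2 genes of lowest p where none was called, and for a set chosen by role. Some genes of these lists are not reported here. Markers of microglia, NSPCs, choroid plexus, border-associated macrophages and monocytes or neutrophils were summed, and the limits of a UMI count cover counting error only.

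Libraries of equal number deviated together in microglia, with correlations across genes of 0.220, 0.193 and 0.262 between conditions, and not in NSPCs (0.0950, -0.0581 and -0.0410). In the order uninjured, PT D1 and PT D7, libraries numbered 1 held 16, 19 and 15 NSPCs and those numbered 2 held 59, 52 and 61. NSPC markers in microglia summed to 154, 142 and 136 CPM in number 1 and 647, 500 and 537 in number 2. The blocked fit assumes that equal numbers share a batch, an assumption without a stated source that was not tested, and PT D7 numbers were read from the last digit in the cell names. Alternatives were DESeq2 1.42.0, no TMM, no filter or at least 10 counts in every library, only the 2 conditions compared, the block, leaving out each library, and leaving out cells by mitochondrial share, marker or cluster. Leaving out cells by choroid plexus or macrophage markers, cluster 0 alone and TMM between classes were added after seeing the data.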

Additional observations from a re-analysis of the deposited data

Results flagged for a closer look

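The 20 cells of the mixed population entered no comparison. In the 5 mixed cells of PT D7 library 1 the 37 lysosomal genes gave 0.857% of UMIs, above the 0.650% of the 4 mixed cells of uninjured library 2, the only uninjured library with such cells. The other mixed cells were at 0.438% and 0.494% at PT D1 and 0.326% in PT D7 library 2.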

How the results depend on the processing

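Lysosomal genes called at PT D1 in microglia numbered 4 and ranged from 0 to 5 when a library was left out (0 without uninjured library 2, 1 without uninjured library 1, 2 without PT D7 library 1). They numbered 7 without cluster 3 cells, 6 higher and 1 lower, where 405 of all 4274 genes were called. With only the 2 conditions they numbered 2 (220 of all 4912 genes), and with the replicate block 7 (639 of all 4846 genes). With all libraries and no block 276 of all 4846 genes were called, so the calls over all genes moved with the processing too. At PT D7 against uninjured, 0 became 1 with DESeq2, 1 without the filter, 1 without cluster 3 cells, 2 with the replicate block and 0 to 2 when a library was left out (1 without PT D1 library 1, 2 without PT D1 library 2). For PT D7 against PT D1 in microglia, 1 became 0 with DESeq2, without TMM or with only the 2 conditions, 2 without the filter, with at least 10 counts, with at most 10% mitochondrial UMIs, without cells holding at least 3 NSPC or choroid plexus markers or without cluster 4 cells, 3 without cluster 3 cells, 4 with the replicate block and 0 to 2 when a library was left out (0 without either uninjured library or without PT D7 library 1, 2 without PT D1 library 2). In NSPCs, 0 became 1 at PT D1 against uninjured and at PT D7 against PT D1 with at least 10 counts, and 0 to 1 in both when a library was left out (1 at PT D1 without either PT D7 library, 1 for PT D7 against PT D1 without uninjured library 2 or PT D7 library 1). The replicate block gave 0 in NSPCs, and leaving the block out of the interaction also gave 0. Among all genes of microglia at PT D7 against uninjured, DESeq2 called 11 of 959. The fit without the filter called 35 of 19178, and that without cluster 3 cells 19 of 4274. For PT D7 against PT D1, DESeq2 called 73 of 1331 genes, and the fit without cluster 3 cells 281 of 4274. In that contrast 170 of 4846 genes were called without TMM and 94 of 3844 with only the 2 conditions. Without the filter 422 of 19178 were called, with at least 10 counts 125 of 2201, and with at most 10% mitochondrial UMIs 207 of 3669. Leaving out cells by NSPC markers gave 229 of 4035, by choroid plexus markers 180 of 4256 and by cluster 4 129 of 4853. In NSPCs with at least 10 counts, 44 of 1066 genes were called at PT D1 and 9 at PT D7 against PT D1. At PT D7 against uninjured, Cd63 turned to -0.11 without cluster 4 cells and -0.19 in cluster 0 alone, and Npc2 to -0.040 without cluster 4 cells.

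For single genes, 313 values kept their direction and side of the threshold, 36 gained a call, 31 lost one and 3 turned direction. A lone library left in a condition was assumed to vary like the others. The cause of these shifts was not tested. Without TMM the median log2 fold change of all genes moved from -0.01 to -0.25 in microglia at PT D7 and the median of the lysosomal genes from 0.36 to 0.13. Of the lysosomal genes, 23 were higher in every microglial than in every NSPC library by share of UMIs and 25 after TMM. Limiting NSPCs to at most 10% mitochondrial UMIs was not run, since too few cells remained. With 2 libraries per condition the spread behind every test rests on few values.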
